A study of Mus musculus with 2 samples.

Results

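The blocks described here are medium-sized stretches of the mouse genome, 3 to 7 kb wide, in which both JARID2 and MTF2 were enriched in embryonic stem (ES) cells. There were 480 of them among 25788 JARID2 blocks on chromosomes 1 to 19. A block was a run of 1 kb bins with JARID2 at 5-fold or more over the expected count of its chromosome, where runs 1 kb apart were joined. A block of that width was kept if at least 1 of its bins held MTF2 at 5-fold or more, and if both files had under 3 lines per distinct read there. The JARID2 and MTF2 levels thus chose the members, and their size is given as a description.

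The series holds 1 ChIP-seq library made with an antibody to MTF2 and 1 made with an antibody to JARID2. ChIP-seq sequences the DNA that is recovered with a protein. Both libraries came from ES cells of the strain 129SvJae x C57BL/6 at passages 10 to 15. The cells grew with 15% serum and had been off feeder cells for 2 to 3 passages before harvest. No replicate and no input or control antibody library was used here, so no test between the factors is possible and intervals cover counting error only. The cell type cannot be checked against expressed markers, since the series measures DNA. Intervals on medians and shares of blocks treat blocks as independent, which neighbouring blocks may not be. After repeat reads were removed, 8946204 MTF2 and 12900993 JARID2 reads remained. The expected count per 1 kb bin had a median over chromosomes of 3.39 for MTF2 and 4.25 for JARID2, so a bin at 5-fold MTF2 rests on few reads.

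JARID2 and MTF2 are both accessory proteins of Polycomb repressive complex 2 (PRC2), the enzyme complex that methylates lysine 27 of histone H3 and keeps developmental genes silent in ES cells. JARID2 belongs to the Jumonji family but lacks its demethylase activity, and it binds DNA and helps bring PRC2 to chromatin. MTF2, also called Polycomb-like 2, has a Tudor domain and PHD fingers and binds unmethylated CpG-rich DNA. Biochemical work places them in different forms of PRC2, one with JARID2 and AEBP2 and one with a Polycomb-like protein. PRC2 in ES cells is known to sit mainly at CpG islands, many of them promoters of developmental transcription factors. The genes and DNA sequence at the members were not analysed here. The genome build of the reads is not given, and the reference tables at hand were judged from the coordinates to be of another build. Members are named by position, counted from 1, in the coordinates of the files.

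Of 3414 JARID2 blocks of 3 to 7 kb, 485 (14.2%) held an MTF2 bin at 5-fold or more, against 3.96% of all JARID2 blocks. Of these, 5 exceeded the limit on repeated lines, which left the 480 members (14.1% of the medium blocks, 95% interval 12.9 to 15.3). Most members were at the narrow end of the range. The widths of 3, 4, 5, 6 and 7 kb had 135, 146, 102, 59 and 38 members. Wider blocks were members more often, from 7.29% (6.14 to 8.56) of the blocks of 3 kb to 32.5% (24.1 to 41.8) of those of 7 kb. A wider block also has more bins in which to reach 5-fold, and no correction was made for that.

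The JARID2 fold, averaged over the block, ran from 4.63 to 158 among the members, with a median of 31.8 (29.5 to 34.4). The MTF2 fold over the same bins ran from 1.63 to 69.6, with a median of 4.13 (3.95 to 4.29). JARID2 stood at 20 to 60-fold in 338 members, and MTF2 at 2 to 8-fold in 444. The members together held 304363 JARID2 reads, or 2.43% of the reads on chromosomes 1 to 19, and 35952 MTF2 reads, or 0.420%. The number of JARID2 reads per MTF2 read, scaled to the size of the libraries, had a median of 6.86 (6.37 to 7.18) and ran from 0.527 to 30.5. This is called the ratio below.

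**Figure D1:**
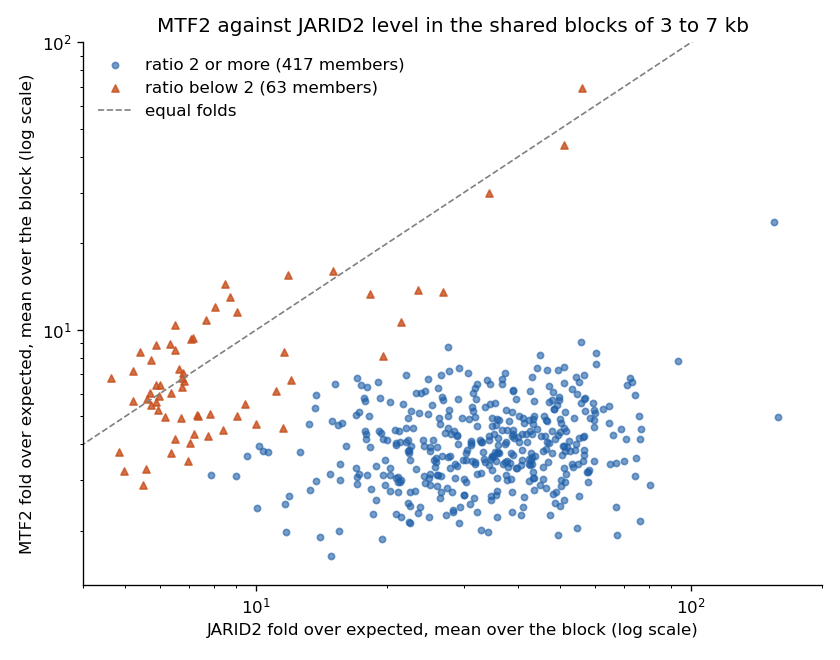
Each point is 1 of the 480 members, with its mean JARID2 fold on the x axis and its mean MTF2 fold on the y axis, both on log scales. The 63 members with a ratio below 2 (triangles) lie near the line of equal folds, mostly below 10-fold JARID2, and the other 417 (circles) lie well to the right of it.

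The highest JARID2 levels among the members were found with both low and high MTF2. The highest lay on chromosome 15 from 91734001 to 91739000. JARID2 was at 158-fold there (152.9 to 164, 3266 reads) and MTF2 at 4.98-fold (3.96 to 6.18, 82 reads). In its 5 bins JARID2 was at 140, 205, 207, 199 and 39.98-fold, and MTF2 at 4.25, 5.77, 5.77, 5.16 and 3.95-fold. Both factors were thus raised in every bin of that block, and outside it, in the bins 2 to 5 kb away, JARID2 averaged 1.06-fold and MTF2 1.18-fold.

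On chromosome 17 from 13343001 to 13346000 JARID2 was nearly as high, at 155-fold (149 to 162), with MTF2 at 23.8-fold (20.8 to 27.0). That block was unusual in its reads. It had 1.85 JARID2 lines per distinct read, against a median of 1.20 in the members. Of its 231 MTF2 reads, 33.8% lay on the plus strand and 3.90% had a deposited score of 0, against 30.2% with that score over all members. The third, on chromosome 3 from 93528001 to 93534000, had JARID2 at 93.3-fold (89.2 to 97.5) and MTF2 at 7.82-fold (6.69 to 9.09). Its bins held 5.99, 145, 92.1, 177, 121 and 18.8-fold JARID2, and 3.33, 6.94, 10.00, 14.2, 6.11 and 6.39-fold MTF2. Here the highest bin of both factors was the same, and both fell to at most 2.78-fold in the bins next to the block.

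The other 5 of the 8 highest in JARID2 had folds of 76.0 to 80.6, with MTF2 between 2.17 and 4.999-fold. They lay on chromosome 13 from 3357001, chromosome 12 from 68138001, chromosome 3 from 39076001, chromosome 6 from 83033001 and chromosome 3 from 116243001. The block on chromosome 12 shows an MTF2 pattern that returns below. Its 4 bins had 12.0, 84.0, 127 and 83.8-fold JARID2, and 5.14, 5.44, 1.81 and 5.75-fold MTF2, so MTF2 was lowest in the bin where JARID2 was highest. The same was seen on chromosome 6 from 83033001 to 83038000, where JARID2 was at 9.63, 125, 132, 96.3 and 18.2-fold and MTF2 at 4.85, 5.42, 2.57, 5.14 and 2.85-fold. These MTF2 values rest on 6 to 19 reads per bin, and on chromosome 6 the lowest bin held 9 reads and the next lowest 10. MTF2 was also lowest in the highest JARID2 bin on chromosome 13 from 3357001 (0.867-fold) and chromosome 3 from 116243001 (3.05-fold). On chromosome 3 from 39076001 it was instead highest there, at 5.55-fold (20 reads).

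The member nearest the median ratio lay on chromosome 2 from 35923001 to 35929000, with a ratio of 6.82 (5.73 to 8.17). Averaged over the block, JARID2 reached 54.4-fold and MTF2 6.83-fold. JARID2 had 7.53, 89.0, 103, 45.7, 73.4 and 8.002-fold in its bins, and MTF2 0.872, 11.1, 6.69, 12.2, 6.40 and 3.78-fold. The edge bins of the block were low in both, and the order of the inner bins differed between the factors.

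Of the 4 members with the highest ratio, 3 had a single MTF2 bin above 5-fold, at no more than 5.67-fold, and the other was the block with the highest JARID2 level. On chromosome 11 from 119361001 to 119367000 the ratio was 30.5 (22.2 to 43.0). JARID2 there was at 10.3, 41.1, 123, 51.9, 89.6 and 11.3-fold, and MTF2 at 0.315, 1.57, 2.20, 5.67, 1.26 and 1.26-fold. MTF2 was raised in the dip between the 2 highest JARID2 bins and stayed at or below 2.20-fold elsewhere. The others were the block on chromosome 15 from 91734001 (27.6), one on chromosome 18 from 35777001 (27.1) and the one on chromosome 3 from 39076001 (23.8).

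**Figure D2:**
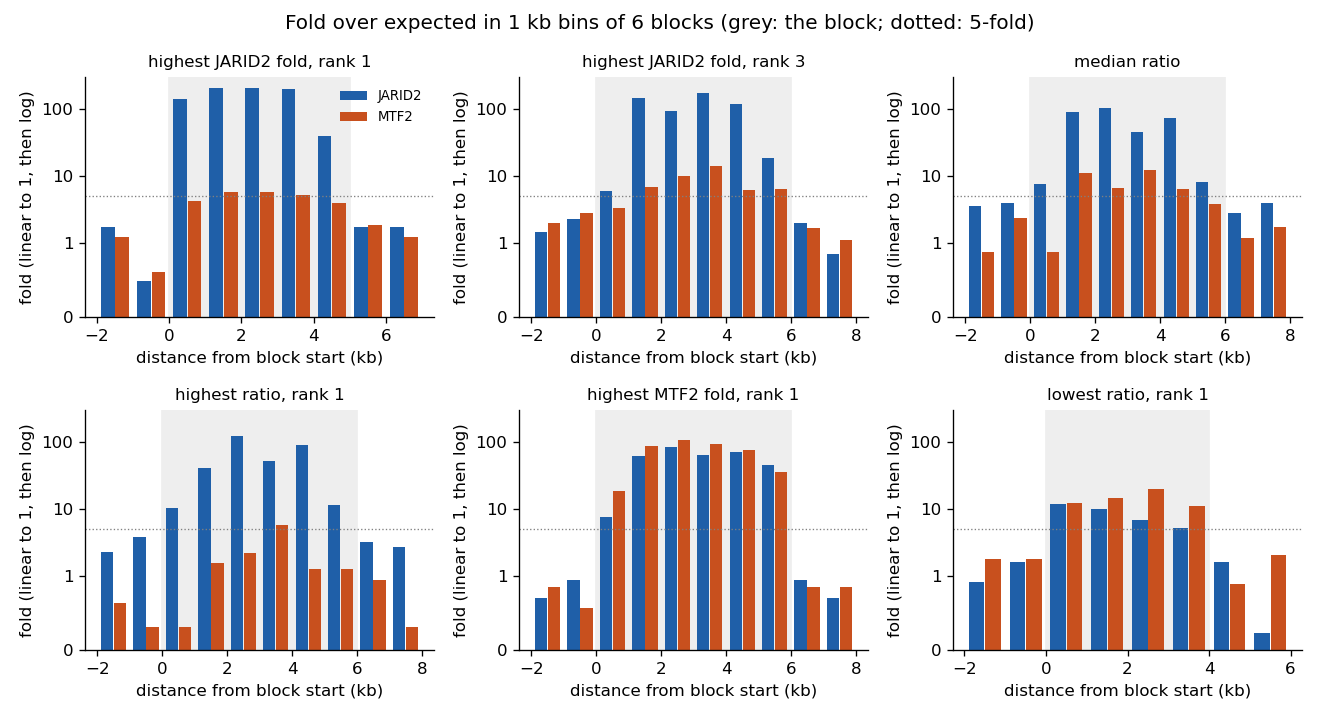
Bars give the fold over expected in 1 kb bins for JARID2 (blue) and MTF2 (orange) in 6 named members and 2 bins on each side, against the distance from the block's start in kb. The grey band marks the block and the dotted line 5-fold. The y axis is linear up to 1 and logarithmic above. JARID2 exceeds MTF2 in every bin of the upper row's blocks, while MTF2 exceeds JARID2 in most bins of the last 2 panels.

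Members that had MTF2 at a level like that of JARID2 were a minority. A ratio below 2, a limit chosen after the values were seen, held for 63 members (13.1%), and 26 members had a higher fold in MTF2 than in JARID2. The median JARID2 fold of the 63 was 6.97 and their median MTF2 fold 6.44, against 34.8 and 3.93 in the other 417. The surroundings, which the rule did not use for MTF2, differed too. In the bins 2 to 5 kb outside the block the median MTF2 level was 3.71-fold for the 63 and 1.13-fold for the 417. Another JARID2 block lay within 20 kb of 50 of the 63 (79.4%) and of 186 of the 417 (44.6%). Since the set was cut from the measured ratio, these values describe it and were not tested.

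Many of these members lay in a few clusters. On chromosome 5, 15 members fell between 14909001 and 15226000, within 317 kb. Their JARID2 folds were 5.41 to 9.02, their MTF2 folds 4.95 to 14.5, and MTF2 was the higher in 12 of them. The bins 2 to 5 kb outside had medians of 4.69-fold MTF2 and 2.99-fold JARID2, so both libraries were raised beside the members as well. A further 6 members lay on chromosome 8 between 19682001 and 19803000, and 3 between 20300001 and 20428000, with median MTF2 folds of 6.998 and 8.95 and median JARID2 folds of 6.11 and 6.34. On chromosome 1, 5 members lay between 87319001 and 87454000, at median folds of 6.41 for MTF2 and 6.00 for JARID2. By contrast, 392 of the 480 members had no other member within 100 kb.

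The lowest ratio was 0.527 (0.423 to 0.656), in the chromosome 5 cluster from 15190001 to 15194000. Its bins held 11.8, 10.0, 6.83 and 5.24-fold JARID2 and 12.4, 14.5, 20.1 and 10.9-fold MTF2. The highest MTF2 level of any member was found apart from these clusters, on chromosome 1 from 24565001 to 24571000. It had 69.6-fold MTF2 (66.1 to 73.2, 1465 reads) and 56.2-fold JARID2 (53.3 to 59.2, 1432 reads). In its 6 bins MTF2 was at 18.2, 87.2, 107, 92.3, 76.4 and 35.9-fold, while JARID2 had 7.53, 62.4, 84.3, 64.7, 72.0 and 46.1-fold. The bins 2 to 5 kb outside averaged below 1-fold in both libraries. In this block 73.1% of the JARID2 reads lay on the plus strand, the most uneven share of any member on that side.

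The next 2 in MTF2 level were on chromosome 15 from 74912001 to 74915000 and on chromosome 2 from 22439001 to 22442000. The former had 43.8-fold MTF2 and 51.1-fold JARID2, with 2.15 JARID2 lines per distinct read, and the latter 29.9-fold MTF2 and 34.4-fold JARID2. Their JARID2 reads, 633 and 438 in number, were 43.1% and 68.9% plus strand. Further members, with MTF2 at 13.8 to 15.997-fold, lay on chromosome 14 from 43592001, chromosome 18 from 7319001 and chromosome 4 from 3016001. Strand shares of 40 to 60% in JARID2 held for 413 of the 417 members with a ratio of 2 or more and for 52 of the 63 below. Most of the 63 were lower in JARID2, and fewer reads give less precise shares. The shares of 73.1% on chromosome 1 from 24565001 and 68.9% on chromosome 2 from 22439001, however, rest on 1432 and 438 JARID2 reads. The part of counting error in the shares of the 63 was not tested. In MTF2 the same limits held for 357 of the 417 and 55 of the 63. Repeated sequence at these blocks was not tested. The 4 members named for the most MTF2 bins at 5-fold all had a ratio below 2, and the highest number, 7 bins, was found on chromosome 18 from 3004001 and chromosome 8 from 20300001.

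How far MTF2 extended within a block varied between members. Of the 2119 bins in members, 848 (40.02%) were at 5-fold MTF2 or more, against 0.178% of all bins on these chromosomes, a share the rule itself raises. Level 2-fold or more was reached in 1644 (77.6%), against 8.3% of all bins. A single bin at 5-fold was held by 270 members, 2 bins by 112, 3 by 59 and 4 to 7 by the rest. In 190 members (39.6%) every bin was at 2-fold or more. JARID2 at 5-fold or more, which defines the blocks, was found in 1.88% of all bins.

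The rule asked for an MTF2 bin anywhere in the block, so its place is a free measure. The highest MTF2 bin was the highest JARID2 bin in 131 members (27.3%, 23.4 to 31.5). It lay 1 kb away in 281 members, 2 kb away in 49 and 3 to 5 kb away in the rest. The direction along the chromosome was nearly even, with 144 members at 1 kb before and 137 at 1 kb after. Where MTF2 bins tied, the one at the lower coordinate was taken. In the block on chromosome 15 from 91734001, 2 bins tied at 19 MTF2 reads, and the highest JARID2 bin was the one not taken. Ties can thus change both the 131 members and this split, and their number is not given here. In medium blocks without an MTF2 bin at 5-fold, the highest bins coincided in 24.8% (23.2 to 26.4), although many of those hold few MTF2 reads. Median widths were 4 kb in members and 3 kb in those blocks. Bins coincide more easily in a narrower block, and the shares were not matched for width.

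Summed over all members, MTF2 was at 5.22-fold (5.11 to 5.33) in the highest JARID2 bin, 5.44-fold (5.36 to 5.52) in the bins next to it and 3.99-fold (3.92 to 4.07) in the other bins. JARID2 fell over the same bins from 66.4-fold to 29.9 and 16.5-fold. Without the 63 members of low ratio, MTF2 was at 4.27-fold (4.17 to 4.38) in the highest JARID2 bin and at 4.84-fold (4.76 to 4.92) beside it. In these 417 members the summed MTF2 level was thus lower where JARID2 was highest than in the next bins. The ratio that set them apart counts the reads of these same bins, so the values describe them and were not tested. The bin was chosen by its JARID2 reads, so its JARID2 level is biased upwards by that choice.

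In steps of 200 bp, the 417 members had 2 MTF2 shoulders and a trough at the highest JARID2 step. In the members with a ratio of 2 or more, the mean MTF2 level was 3.85-fold (3.62 to 4.08, 1108 reads) at that step. It was 5.61-fold (5.34 to 5.89) 400 bp before it in coordinate order, 4.94-fold (4.69 to 5.20) 400 bp after it, and 5.68 and 5.19-fold at 600 bp. Mean JARID2 was 118-fold in the centre, 49.5-fold 400 bp before it and 54.4-fold 400 bp after it. MTF2 reads at the step were 0.718 times (0.673 to 0.766) the mean of the steps 400 and 600 bp away. The step was below the mean of its sides in 296 of these members and above it in 108. The ratio that chose these members counts the reads of the block, that step included.

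The trough was not seen in every kind of member. In the 63 members of low ratio the step held 1.55 times (1.41 to 1.70) the MTF2 reads of its sides, a sum to which the blocks with most MTF2 reads give most, and it was above its sides in 38 and below them in 24. Over all 480 members the value was 0.896 (0.850 to 0.944). By the height of the highest JARID2 bin it was 1.29 (1.13 to 1.47) in the 57 members below 20-fold, 1.07 (0.960 to 1.19) at 20 to 50-fold, 0.741 (0.682 to 0.804) at 50 to 100-fold and 0.830 (0.733 to 0.939) in the 95 members at 100-fold or more. The 2928 medium blocks without an MTF2 bin at 5-fold had a trough as well, at 0.598 (0.567 to 0.631), although their MTF2 level was low, 0.786-fold in the centre against 1.34-fold 600 bp before it and 1.40-fold 600 bp after it. The trough is therefore not a trait of the members alone.

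**Figure D3:**
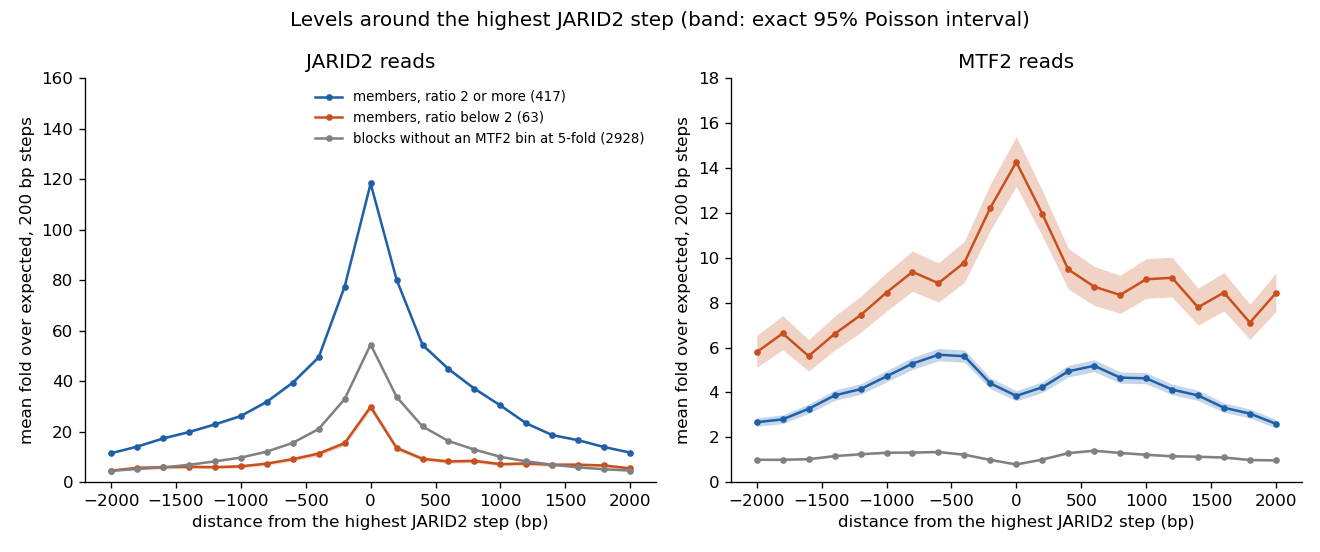
Mean fold over expected in 200 bp steps (y axis) against the distance in bp from the highest JARID2 step (x axis), for JARID2 reads on the left and MTF2 reads on the right, with exact 95% Poisson bands. JARID2 peaks at 118-fold in the members with a ratio of 2 or more, where MTF2 falls to 3.85-fold between shoulders of 5.68 and 5.19-fold, while MTF2 peaks at the step in the 63 members of low ratio.

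The trough was present on each strand and with other read shifts. For the 417 members it was 0.703 (0.641 to 0.770) with plus strand reads, 0.734 (0.669 to 0.803) with minus strand reads 0.750 (0.704 to 0.799) with reads left unmoved and 0.703 (0.659 to 0.750) with reads moved by 100 bp. It differed by the deposited score of the MTF2 reads, whose meaning is not given in the sources used here. Reads with score 0 gave 0.469 (0.405 to 0.541) and reads with a higher score 0.820 (0.763 to 0.882). Over all 480 members those values were 0.617 (0.551 to 0.690) and 1.01 (0.956 to 1.08), so there reads of higher score showed no trough.

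Within the members, 30.2% (29.7 to 30.7) of MTF2 reads had score 0, against 41.5% of all MTF2 reads on these chromosomes. The share fell towards the JARID2 maximum, from 34.0% (31.1 to 37.0) at 2000 bp before the step and 31.2% (28.6 to 34.0) at 2000 bp after it to 20.5% (18.7 to 22.5) at the step. In medium blocks without an MTF2 bin at 5-fold the shares were 29.4% over the block and 19.7% (17.8 to 21.8) at the step. The low share of score 0 thus went with the JARID2 maximum in both kinds of block. The part of the score, and of base composition, in the MTF2 trough was not tested further.

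**Figure D4:**
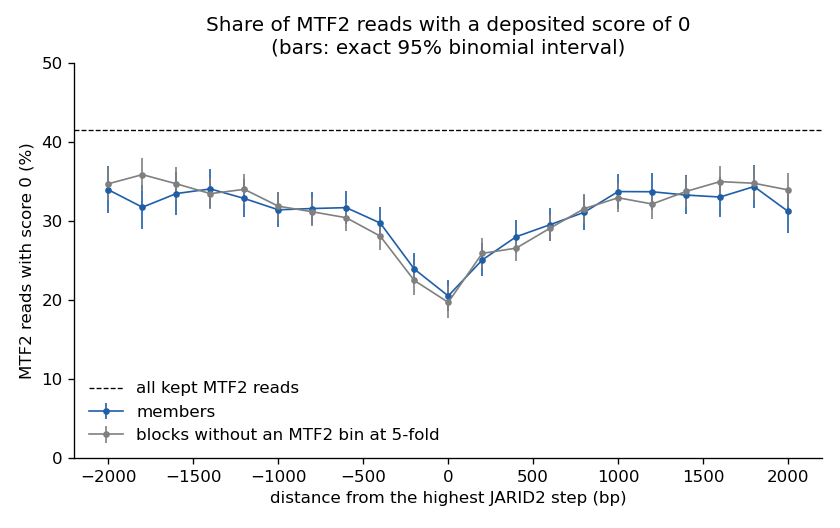
The share of MTF2 reads with score 0, in percent, against the distance in bp from the highest JARID2 step, with exact 95% binomial intervals. Members and medium blocks without an MTF2 bin at 5-fold follow the same course, falling to 20.5% and 19.7% at the step, below the 41.5% of all MTF2 reads (dashed).

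Outside the members with a ratio of 2 or more, JARID2 and MTF2 returned to near their expected levels. The 63 members of low ratio had medians of 3.71-fold MTF2 and 2.85-fold JARID2 at 2 to 5 kb outside. For the 417 members with a ratio of 2 or more, the median MTF2 level was 1.62-fold in the first 1 kb on either side, 1.13-fold at 2 to 5 kb, 1.06-fold at 6 to 10 kb and 1.01-fold (0.998 to 1.04) at 21 to 50 kb. JARID2 fell over the same distances from 2.86-fold to 1.60, 1.29 and 1.18-fold (1.10 to 1.26). Medium blocks without an MTF2 bin at 5-fold stood in other surroundings. There MTF2 was at 0.845-fold (0.835 to 0.853) and JARID2 at 1.82-fold (1.77 to 1.88) 21 to 50 kb away. In the first 1 kb the other medium blocks had 0.877-fold MTF2 and 2.51-fold JARID2 (2.47 to 2.54), so JARID2 there was higher beside the members. The blocks themselves differed in JARID2, with medians of 34.8-fold in the 417 and 12.9-fold in the others. The first 1 kb was not compared at matched height. From 2 kb outwards the members' surroundings had more MTF2 and less JARID2 than those of the other medium blocks. A higher local MTF2 level also makes it easier for a bin to reach 5-fold. With blocks over 6 kb from the next JARID2 block alone, MTF2 at 2 to 5 kb outside was 1.09-fold (1.05 to 1.13) for 328 members of any ratio and 0.887-fold (0.872 to 0.905) for 1798 of the other medium blocks. JARID2 was then at 1.46-fold (1.41 to 1.51) and 1.52-fold (1.496 to 1.55), with intervals that overlap.

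At matched JARID2 height the median MTF2 level around members was the higher in all 5 classes, while the median JARID2 level was the lower only from 20-fold up. Among blocks whose highest JARID2 bin was at 50 to 100-fold, the level 21 to 50 kb away was 1.01-fold MTF2 (0.992 to 1.04) and 1.08-fold JARID2 (1.002 to 1.23) for the 216 members. For the 562 other blocks it was 0.912-fold MTF2 (0.892 to 0.930) and 1.41-fold JARID2 (1.35 to 1.498). At 100-fold or more, MTF2 was at 0.979-fold (0.930 to 1.01) around members and 0.866-fold (0.826 to 0.944) around the others, and JARID2 at 1.33-fold (1.17 to 1.42) and 1.49-fold (1.34 to 1.86), intervals that overlap in both. At 5 to 10-fold, JARID2 was instead higher around members, at 3.00-fold (2.39 to 4.03) against 2.13-fold (2.04 to 2.22), and so was MTF2, at 3.60-fold (2.85 to 4.57) against 0.800-fold (0.774 to 0.817). The share of members among the medium blocks rose with that height, from 2.62% at 10 to 20-fold to 10.6% at 20 to 50-fold, 27.8% (24.6 to 31.1) at 50 to 100-fold and 56.9% (49.0 to 64.5) at 100-fold or more. It was 5.92% (4.18 to 8.10) at 5 to 10-fold, where the median MTF2 level 2 to 5 kb outside the 36 members was 4.71-fold.

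**Figure D5:**
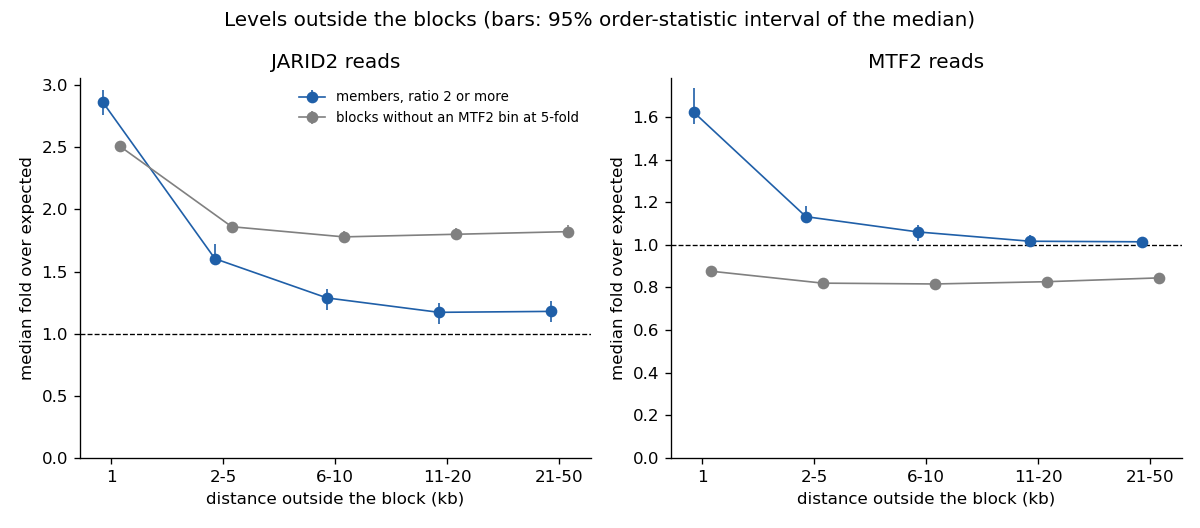
Median fold over expected (y axis) against the distance outside the block in kb (x axis, classes not to scale), for JARID2 on the left and MTF2 on the right, with 95% order-statistic intervals. Beyond 5 kb the 417 members with a ratio of 2 or more (blue) lie below the 2928 blocks without an MTF2 bin at 5-fold (grey) in JARID2 and above them in MTF2.

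Without regard to JARID2 height, fewer members than other medium blocks had a close JARID2 neighbour, and more had a wide shared one. Another JARID2 block lay within 20 kb of 236 members (49.2%, 44.6 to 53.7), against 64.4% (62.6 to 66.1) of the medium blocks without an MTF2 bin at 5-fold. The median distance to the nearest block was 22 kb (17 to 27) for members and 11 kb (10 to 11) for the latter. A shared block of 8 kb or more lay within 100 kb of 90 members (18.8%, 15.4 to 22.5) and of 132 of the 2928 others (4.51%, 3.79 to 5.32). With the 63 members of low ratio left out, that share was 13.4% (10.3 to 17.1). At matched JARID2 height these differences were smaller or absent at 50-fold or more, while the one in wide shared blocks was larger below 50-fold. With the highest JARID2 bin at 50 to 100-fold, a block lay within 20 kb of 43.1% of members and 43.8% of the others. The shares were 40% and 50% at 100-fold or more, and 51.8% and 62.5% at 20 to 50-fold. They were 71.4% and 73.5% at 10 to 20-fold, and 88.9% and 77.3% at 5 to 10-fold. A wide shared block lay near 9.72% (6.12 to 14.5) of members and 4.80% (3.19 to 6.91) of the others at 50 to 100-fold, and near 13.7% (7.49 to 22.3) and 4.17% (0.868 to 11.7) at 100-fold or more, with intervals that overlap in both classes. Below 50-fold the intervals did not overlap, but they treat blocks as independent. Members of low JARID2 fold were clustered, with 15 of them within 317 kb on chromosome 5, so several can lie near the same wide block. Their shares may thus rest on few places in the genome. The shares were 20.5% (13.5 to 29.2) and 4.78% (3.51 to 6.35) at 20 to 50-fold. They were 47.6% (25.7 to 70.2) and 4.48% (3.14 to 6.18) at 10 to 20-fold, and 63.9% (46.2 to 79.2) and 3.85% (2.43 to 5.77) at 5 to 10-fold. No test over samples can be made with 1 library per factor, so these are differences within this pair of libraries.

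Shared blocks of other widths differed from the members in different measures. The median ratio was 1.76 (1.29 to 2.23) in 211 shared blocks of 1 to 2 kb, 6.86 in the members and 5.62 (5.27 to 6.13) in 289 shared blocks of 8 kb or more. The MTF2 bin that the rule asks for makes up more of a narrow block. The lower ratio of narrow blocks is thus in part set by the rule. The median JARID2 fold was 14.8 (10.7 to 18.8) in the narrow blocks and 33.1 (30.9 to 36.2) in the wide ones, the latter with an interval that overlaps that of the members. The highest MTF2 bin had a median of 6.72-fold (6.39 to 7.37) in the narrow blocks, 6.84-fold (6.65 to 7.09) in the members and 10.8-fold (10.3 to 11.4) in the wide ones, and a wide block offers more bins for that maximum. Another JARID2 block lay within 20 kb of 62.6% (55.7 to 69.1) of the narrow and 69.9% (64.3 to 75.1) of the wide blocks, both above the members' 49.2%.

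The members were found on every chromosome from 1 to 19. Their number ran from 11 on chromosome 14 to 49 on chromosome 5, and their share of the medium blocks from 7.64% to 22.9% on the same chromosomes. Without the low-ratio members, chromosome 5 had 32 and its share was 15.0%. By that count the highest share was 17.5%, on chromosome 16, and the lowest was 6.94%, on chromosome 14. Chromosomes 3, 9 and 16 had no member with a ratio below 2.

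At the edge of the rule, the 3 members with the lowest maximum had their highest MTF2 bin at 5.01, 5.01 and 5.02-fold, and the nearest 3 blocks outside were at 4.999-fold. One of the former, on chromosome 9 from 81428001, had JARID2 at 40.8-fold, and one of the latter, on chromosome 3 from 123438001, at 50.4-fold. The member nearest the limit on repeated lines had 2.23 JARID2 lines per distinct read, on chromosome 16 from 35901001. The nearest block left out had 3.02, on chromosome 4 from 118044001, with JARID2 at 183-fold and MTF2 at 19.8-fold.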

How the data were processed

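Each deposited file lists aligned reads of 1 library as intervals, 1 per line, 52 bp long for MTF2 and 36 bp for JARID2. Per the labels' protocols, libraries had 15 PCR cycles and were sequenced on a Genome Analyzer. Aligner and genome build: not given in the sources used here. In the deposited files the score ran from 0 to 10 in MTF2 and was 1000 on every line of JARID2. Lines with an identical 5' end on the same strand counted as 1 read (81.4% of MTF2 and 89.2% of JARID2 lines), moved downstream by 70 bp (MTF2) or 100 bp (JARID2) and counted in 1 kb bins. The expected count was each chromosome's mean over bins holding a read in either file, up to the 99th percentile. Blocks and members follow the rule stated above. Folds have exact Poisson intervals, shares Clopper-Pearson intervals, ratios exact conditional intervals and medians order-statistic intervals, all at 95%. PCR reads are not independent molecules. Python 3.11.15, NumPy 2.4.6, pandas 2.3.3 and SciPy 1.17.1 were used. The block finder was tested on simulated data with the planted MTF2 bin at 10-fold, so not for bins near the 5-fold limit. Members and lists were chosen with earlier results of these data known. Named members were the 8 highest in JARID2 and in MTF2 fold, the 4 highest and 4 lowest ratios, the 4 with most MTF2 bins and the 1 at the median ratio, at most 1 per 100 kb in each list. Gene lists and sequences were not analysed here, for want of a reference of the files' build.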

Additional observations from a re-analysis of the deposited data

Results flagged for a closer look

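Chromosome X was outside the rule for members. The same rule found 65 blocks among its 204 JARID2 blocks of 3 to 7 kb (31.9%), with median folds of 8.21 for JARID2 and 5.81 for MTF2. The ratio was below 2 in 52 of them, and its median was 0.869. An X bin was expected to hold 2.24 MTF2 reads and 2.10 JARID2 reads, so folds there rest on fewer reads than on the other chromosomes.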

How the results depend on the processing

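For 9 results there were 80 alternative values, of which 56 stayed within 1.5 times (number of members) or within the interval of the main value (other results), 24 moved and 0 reversed. The ratio limit of 2 and the MTF2 trough with its settings were added after seeing the data. With a threshold of 4-fold there were 773 members, 15.4% of medium blocks, at median folds of 26.1 (JARID2) and 3.21 (MTF2). At 6-fold these medians were 35.8 and 4.93, and MTF2 at 2 to 5 kb outside was 1.25. All deposited lines gave a JARID2 fold of 35.5 and a ratio of 8.29. With no gap merged, members made 18.6% of medium blocks, MTF2 was at 4.29-fold inside and 1.25-fold outside, and 58.1% had a block within 20 kb. The median of bins as the expected count gave 11.5%, 3.83-fold and 1.33-fold. Members with a ratio of 2 or more gave 12.2%, folds of 34.8 and 3.93, a ratio of 7.37 and 44.6% with a near block. The trough was 0.718 in those members, and over all members 0.617 with reads of score 0 and 1.01 (0.956 to 1.08) with the others. No trough was thus seen over all members with reads of higher score, which is counted above as moved. These thresholds and read sets define the members or reads counted, and other causes were not tested. No paired analysis was possible because each factor has 1 library. With 3.39 MTF2 reads expected per bin, small MTF2 differences between single bins were not detectable at this depth.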
